A study of Arabidopsis thaliana with 48 samples.

Results

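The experiment described here is the first light and dark cycle of the day in CCA1OX, an Arabidopsis thaliana line that overexpresses CCA1, a MYB-related transcription factor of the circadian clock. It compares seedlings sampled in the dark 280 min after dawn (6 arrays) with seedlings sampled in the light 120 min after dawn (5 arrays), which are 11 of the 48 Affymetrix ATH1 arrays of the study. Members were chosen from the labels alone, by genotype, light and minute of the day, and no measured value entered the choice. The study asked which genes accompany hypocotyl elongation, the lengthening of the seedling stem, and it also sampled CCA1OX later in the day, the accession Col and the double mutant pif4 pil5.

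All seedlings grew on MSMO medium with 3% sucrose, and total RNA came from pooled whole seedlings. They were kept in short days and then in cycles of 160 min of light and 320 min of dark. CCA1OX light 120 holds CCA1OX seedlings in the light, labelled not growing, aged 4, 5 or 6 days after germination. CCA1OX dark 280 holds CCA1OX seedlings in the dark, labelled growing, of the same ages. The arrays come from 2 time courses, and day 6 of time course 2 has a dark array (replicate 6) but no light array at 120 min. Day 6 thus weighs more in the dark group than in the light group. The comparison groups are CCA1OX in the light at 1080 min and in the dark at 1240 min (5 arrays each), and Col in the light at 120 min (5 arrays) and in the dark at 280 min (6 arrays). Light, time after dawn and the growth label change together between the groups compared, so their parts in any difference cannot be told apart. The promoter and the number of independent transgenic lines are not given in the sources used here, and no probe set carries the name CCA1 in the naming table used, so the line was not checked at its own gene.

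Hypocotyls elongate when phytochrome-interacting factors (PIFs), a family of bHLH transcription factors that accumulate in darkness and are removed after light activates the phytochrome photoreceptors, switch on growth genes. Among the known targets of PIFs are genes of the response to auxin, the hormone that drives cell expansion, and genes first known from plants in the shade of others. In wild-type seedlings the clock confines this to part of the day, and CCA1 overexpression disturbs clock rhythms. Light in turn activates the bZIP factors HY5 and HYH, which promote pigment and flavonoid synthesis.

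The samples were described as whole seedlings, and a gene of green tissue gave a strong signal. RCA, the activase of Rubisco, read 12.3 to 12.6 on the light arrays and 12.4 to 12.6 on the dark arrays on the log2 scale, close to the top of the scale at 13.1. The root hair expansins EXPA7 and EXPA18 differed by -0.39 ± 0.37 and -0.42 ± 0.37 (log2 difference ± SE, dark minus light). Their median was 0.22 in time course 1 and -1.18 in time course 2, so the time courses differed in sign. The seed storage marker PAP85 differed by 0.65 ± 0.36 and the stomatal lineage factor FMA by -0.18 ± 0.20. None of these 4 markers passed the test, and the markers of other organs had no named probe set here. The differences do not show how strong the root, seed or stomatal signal was. Array medians were 4.57 to 4.67 in the light and 4.59 to 4.80 in the dark. The 3' minus 5' difference of the control probe sets, a measure of RNA quality, averaged 1.60 in the light (1.46 to 1.78) and 1.70 in the dark (1.60 to 1.83), and 139 probe sets were called with it as a covariate.

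Among the 11 arrays 1 went against its label. A darkness score was computed for each CCA1OX array from probe sets chosen on 9 Col arrays of time course 2 only, as the mean of 135 probe sets higher in the dark minus the mean of 287 probe sets lower in the dark, each relative to its CCA1OX mean. The 5 light arrays scored -0.19, -0.64, -0.81, -1.52 and -0.83, and 5 of the 6 dark arrays scored 0.57 to 1.31. Dark replicate 2, from day 5 of time course 1, scored -0.73, inside the light range. Over all probe sets it correlated with the light arrays by 0.987 on average and with the other dark arrays by 0.977, whereas the other dark arrays correlated with each other by 0.983. With light replicate 2, of the same day and time course, it correlated by 0.992. Light replicate 1, from day 4 of time course 1, had the highest score of the light group. The counts of called probe sets and most called genes below are therefore given with and without dark replicate 2. Of the Col arrays used for comparison, dark replicate 3 at 280 min also went against its label, with a score of -0.83 against at least 0.97 on each of the other 5 Col dark arrays, 3 of which had served to choose the probe sets, and the main Col results are given with and without it.

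**Figure D1:**
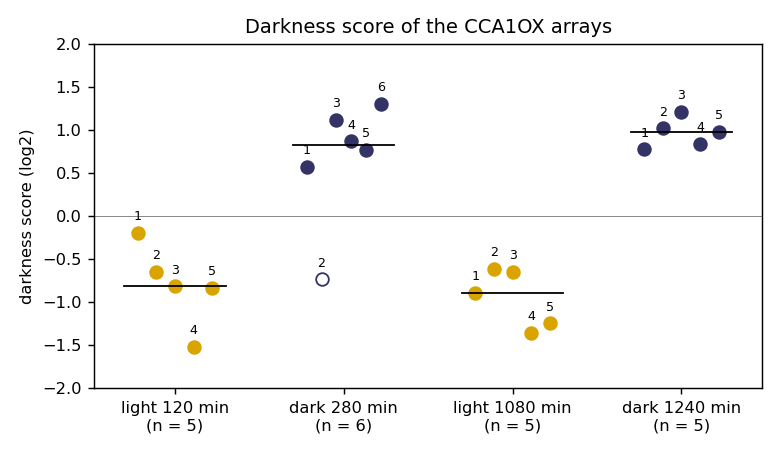
Darkness score (log2 difference, y axis) of each CCA1OX array by group (x axis), with the replicate number above each point and the group median as a line. The open point, dark replicate 2 at 280 min, lies at -0.73 among the light arrays, and the other 5 dark arrays at 280 min lie between 0.57 and 1.31, near the dark arrays at 1240 min (0.78 to 1.21).

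In the first cycle of CCA1OX, several auxin and shade response genes were higher in the dark, and several light signalling genes and a flavonoid gene were lower. The auxin repressor gene IAA29 was 9.15-fold higher in the dark, the auxin-conjugating enzyme gene GH3.3 was 3.07-fold higher, the HY5 homologue HYH was 4.25-fold lower and the flavonoid glucosyltransferase gene UGT78D2 was 3.98-fold lower. Each value is a difference of group means of log2 expression, tested with limma, and the Benjamini-Hochberg adjustment covered the 22746 probe sets tested. Each SE rests on a spread pooled over all groups fitted, 9 in the main fit, not only on the groups compared. It can therefore be wider or narrower than the ranges printed beside it imply. A probe set was called at an adjusted p under 0.05. In RNA from whole seedlings, fewer cells of a type and less RNA per cell cannot be told apart.

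Of the 22746 probe sets, 326 were called (1.43%), with 140 higher (0.615%) and 186 lower (0.818%) in the dark, and 148 of them differed by at least 2-fold. Without dark replicate 2, 905 were called (3.98%), with 405 higher (1.78%) and 500 lower (2.20%), and 385 differed by at least 2-fold. Of the 326, 325 were also called without that array, and 580 more were called only without it. The median log2 difference over all probe sets was 0.01. With the array medians set equal that median became -0.05, and the share of higher calls fell from 42.9% to 28.5%, with 105 higher and 263 lower.

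The count moved with the arrays in the fit. When only these 11 arrays were fitted, no probe set was called by limma and 3042 had an unadjusted p under 0.05. The same fit without dark replicate 2, chosen after the data were seen, called 1144, with 484 higher and 660 lower. Leaving out any 1 of the other 5 dark arrays gave 219, 45, 28, 47 or 12 calls, and leaving out 1 light array gave between 45 and 314. The 12 calls came without dark replicate 6, the day 6 array of time course 2 that has no light partner. The count moved by over 1.5 times without any 1 of dark replicates 2 to 6 or light replicates 2 to 5. Calls of single genes moved too: over the 11 fits that each left out 1 array, IAA29 was called in 5, FHL in 5, WES1 in 4, AFR in 4, UGT78D2 in 3, GH3.3 in 2 and HYH in 2, and the sign of each was the same in all 11. Called in all 11 fits were 10 probe sets, among them BIM1, WSD1, AT5G50335, AT5G02580 and AT2G46420, described below, and AT1G25275 (1.18 ± 0.23), AT5G60680 (1.31 ± 0.25) and AT4G01130 (1.23 ± 0.22), picked out after their values were seen.

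**Figure D2:**
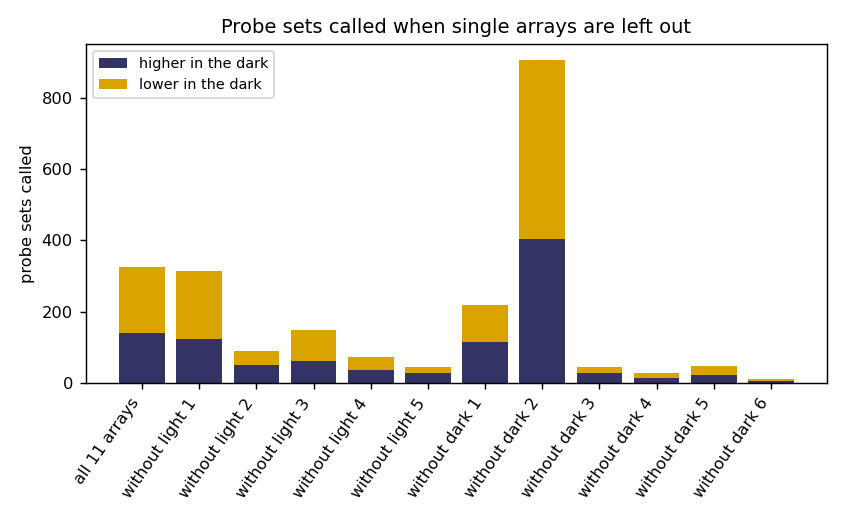
Number of probe sets called at an adjusted p under 0.05 (y axis), higher and lower in the dark, with all 11 arrays and with each array left out in turn (x axis). The bar without dark replicate 2 reaches 905, and the bar with all arrays 326, while the other bars lie between 12 and 314.

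Growth-related transcription factors and shade markers were described from a list of 7 genes that PIFs or shade are known to induce, or that were put on it with earlier results of these data known. In the dark 5 of the 7 rose and none fell, with a median log2 difference of 1.09 against 0.01 over all probe sets. The median was 0.76 in time course 1, which holds dark replicate 2, and 1.70 in time course 2. Without dark replicate 2, 6 of the 7 rose, with a median of 1.30. The shares called higher among all probe sets were 0.615%, and 1.78% without that array. The list was assembled with these data in view, so its direction is no independent evidence.

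IAA29, an Aux/IAA repressor that auxin and PIFs induce, had the largest rise of the named genes. It read 5.57, 4.35, 4.31, 3.20 and 3.75 on light replicates 1 to 5. On the dark arrays it read 4.61 in replicate 2 and 6.79 to 8.66 in the other 5, with a median of 7.97 over all 6. Only dark replicate 2 fell within the light range. The log2 difference was 3.19 ± 0.73 (SE, limma, adjusted p = 0.0214), and 3.76 ± 0.71 without dark replicate 2. All 5 pairs of one day and time course had a positive difference. The pair with dark replicate 2 differed by only 0.26, against 1.21 to 4.51 in the others. Over all 22746 probe sets, 3130 moved in the direction of their mean in all 5 pairs.

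FHL, which carries phytochrome A into the nucleus together with its relative FHY1, read 2.72 to 2.78 on 4 light arrays and 3.69 on light replicate 1. It read 2.99 on dark replicate 2 and 3.81 to 4.66 on the other dark arrays. The difference was 1.09 ± 0.24 (adjusted p = 0.0200), and 1.30 ± 0.23 without dark replicate 2. The light and dark ranges separated only when that array was left out.

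BIM1, a bHLH factor of brassinosteroid signalling, read 5.72 to 6.54 in the light and 6.66 to 7.43 in the dark. Its groups did not overlap even with dark replicate 2, which had the lowest dark value. The difference was 0.85 ± 0.16 (adjusted p = 0.0113), and 0.93 ± 0.16 without dark replicate 2. In time course 1 alone it was 0.45, and in time course 2 alone 1.33. BIM1 was among the 10 probe sets called whichever of the 11 arrays was left out.

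HAT2, a homeodomain-leucine zipper gene induced by auxin and shade, read 6.45 to 7.48 in the light and 6.82 to 8.51 in the dark, with dark replicate 2 lowest. Its difference of 0.98 ± 0.28 did not pass the test (adjusted p = 0.0636), and without dark replicate 2 it was 1.18 ± 0.27 and passed (adjusted p = 0.00637). AT1G69570 did not pass with all arrays (0.61 ± 0.29) or without dark replicate 2 (0.62 ± 0.31), and its light range of 4.47 to 5.68 overlapped its dark range of 5.11 to 6.67.

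A pair of loci without a symbol completed the list. AT5G02540 read 2.89 to 3.65 in the light, 3.75 on dark replicate 2 and 4.87 to 8.00 on the other dark arrays, a difference of 3.07 ± 0.69 (adjusted p = 0.0200), and 3.57 ± 0.68 without dark replicate 2. AT5G50335 read 3.04 to 3.70 in the light, 3.53 on dark replicate 2 and 5.15 to 6.34 on the others. Its difference was 2.25 ± 0.35 (adjusted p = 0.00111), and 2.65 ± 0.30 without dark replicate 2, and it too was called whichever array was left out.

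Some auxin response genes rose, and no gene of auxin synthesis passed the test. The GH3 enzymes join auxin to amino acids and so lower the free hormone. In the dark 2 of the 5 measured members rose and none fell, with a median of 0.16, and the same 2 rose without dark replicate 2. The median was -0.05 in time course 1 and 0.44 in time course 2. Among all probe sets 0.615% were called higher, and 1.78% without that array. GH3.3 read 4.74 to 5.56 in the light, 4.77 on dark replicate 2 and 6.12 to 8.28 on the other dark arrays. Its difference was 1.62 ± 0.40 (adjusted p = 0.0323), and 2.02 ± 0.37 without dark replicate 2.

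WES1, the GH3.5 gene, read 7.45 to 8.39 in the light, 7.98 on dark replicate 2 and 8.73 to 9.06 on the other dark arrays. It rose by 1.01 ± 0.23 (adjusted p = 0.0226). Without dark replicate 2 the ranges separated and the rise was 1.17 ± 0.23. GH3.1 (0.16 ± 0.26), GH3.17 (-0.08 ± 0.22) and GH3.9 (-0.60 ± 0.25) did not pass. Each of these 3 had overlapping groups.

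Of 7 Aux/IAA genes only IAA29 was called, and the other 6 differed by -0.21 to 0.69. The 4 measured YUCCA genes, whose enzymes make auxin, differed by -0.05 to 0.10. The 4 gibberellin receptor and signalling genes GID1A, GID1B, GID1C and SLY1 lay between -0.06 and 0.10. None of these 8 genes passed the test with or without dark replicate 2.

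**Figure D3:**
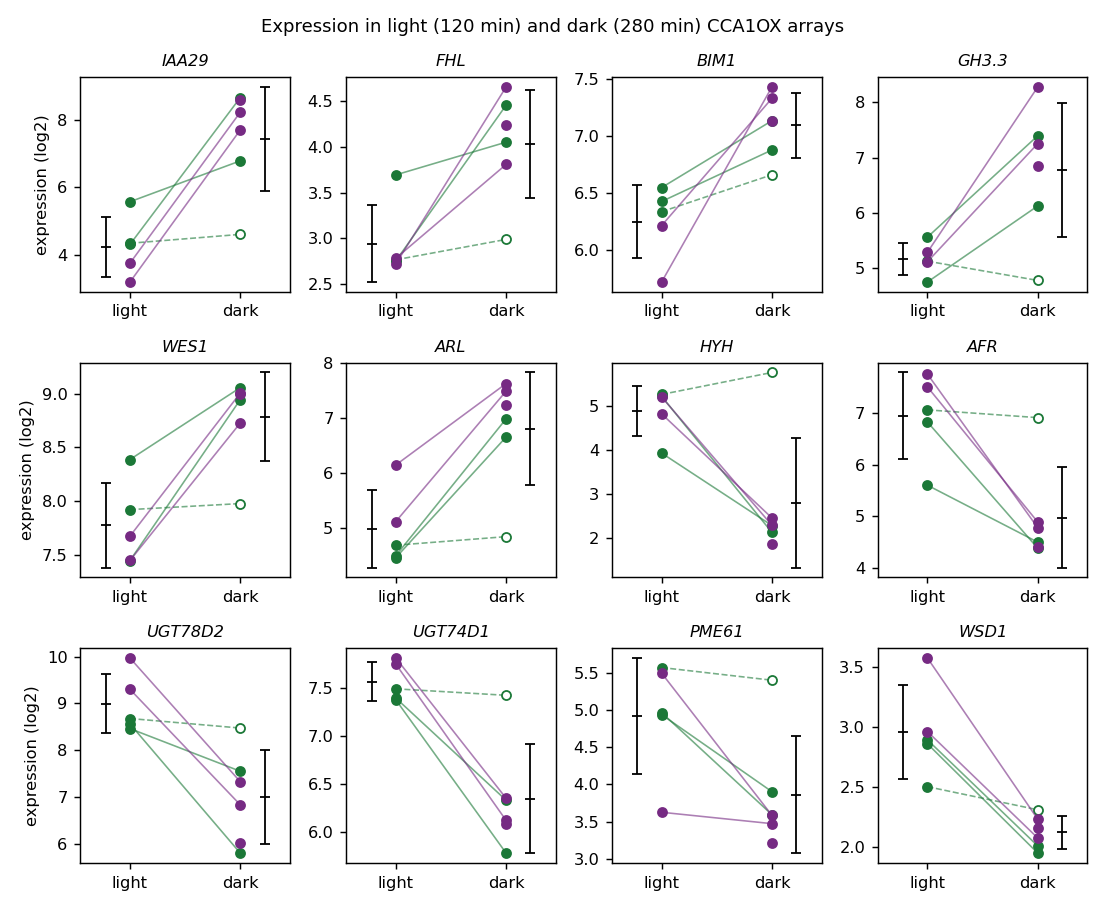
Log2 expression (y axis) of 12 genes on the 5 light arrays at 120 min and the 6 dark arrays at 280 min. Lines join arrays of one day and time course, green for time course 1 and purple for time course 2, and the open point and dashed line are dark replicate 2. Black bars give the mean and SD of each group. For IAA29, GH3.3, WES1 and HYH the open point lies inside or beyond the light range, and the other 5 dark arrays lie outside it.

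The other genes with the largest rises were mostly loci without a symbol. Of the 12 highest called probe sets with a single gene, the log2 differences ran from 1.66 to 3.19. The groups did not overlap in 1 of these 12 with all arrays, and in all 12 without dark replicate 2. Over all 22746 probe sets they did not overlap in 229, and in 1335 without that array. Among the 326 called it was 52 and 293. These genes were picked for large differences in the same values, so their separation is no independent evidence. All 12 were called in both fits. ARL, an ARGOS-like gene that promotes cell expansion in organs, read 4.46 to 6.15 in the light, 4.84 on dark replicate 2 and 6.66 to 7.63 on the others, a rise of 1.83 ± 0.44 (adjusted p = 0.0260), and 2.22 ± 0.41 without dark replicate 2.

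AT3G15450, on the list of sugar-repressed genes, read 4.83 to 6.66 in the light, 6.16 on dark replicate 2 and 7.90 to 9.78 on the other dark arrays. It rose by 2.65 ± 0.68 (adjusted p = 0.0367), and by 3.09 ± 0.68 without dark replicate 2. AT5G02580 read 3.23 to 3.87 in the light, 3.79 on dark replicate 2 and 5.55 to 6.43 on the others, and rose by 1.85 ± 0.34 (adjusted p = 0.00736), or 2.19 ± 0.31 without dark replicate 2. It was called whichever array was left out. The remaining members of the 12 were AT3G62550 (1.96), AT3G15630 (1.87), AT4G34950 (1.78), AT5G57760 (1.74), AT4G35720 (1.70) and AT3G53250 (1.66), all as log2 differences. Leaving out dark replicate 2 gave 2.30, 2.17, 2.31, 2.08, 2.08 and 1.90 in the same order.

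**Figure D4:**
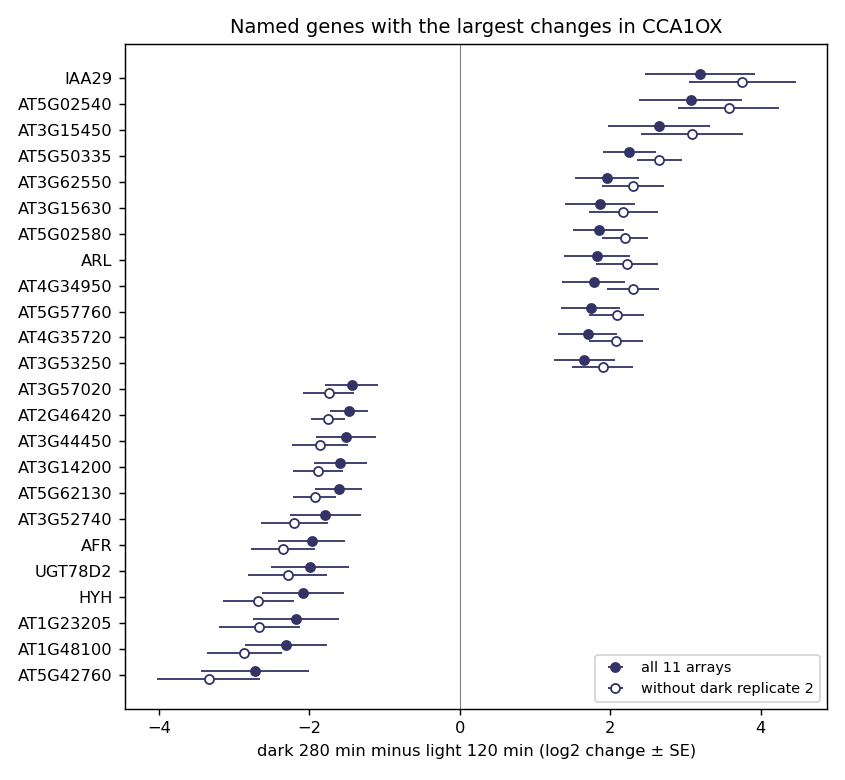
Log2 difference, dark 280 min minus light 120 min, with its SE (x axis), for the 12 highest and 12 lowest called genes (y axis). Filled points use all 11 arrays and open points leave out dark replicate 2. Every open point lies farther from 0 than its filled point, as for IAA29 (3.19 and 3.76) and HYH (-2.09 and -2.68).

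Light signalling genes of the list fell. All 3 members of that list, HYH, AT3G52740 and AT3G44450, were lower in the dark, with a median of -1.79 and of -2.20 without dark replicate 2. The median was -1.08 in time course 1, which holds that array, and -2.66 in time course 2. Over all probe sets 0.818% were called lower, and 2.20% without that array. The list was chosen with earlier results of these data known, so its direction is no independent evidence. Each of the 3 was called in 2 of the 11 fits that left out 1 array. HYH, the HY5 homologue, read 3.93, 5.26, 5.22, 5.20 and 4.82 on light replicates 1 to 5. It read 1.86 to 2.46 on 5 dark arrays and 5.76 on dark replicate 2, above every light array. The difference was -2.09 ± 0.54 (adjusted p = 0.0387), and -2.68 ± 0.48 without dark replicate 2 (adjusted p = 0.000467), a 6.41-fold fall.

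AT3G52740 read 3.51 on light replicate 1 and 5.23 to 6.09 on the other light arrays. It read 5.44 on dark replicate 2 and 2.76 to 3.20 on the other dark arrays, a fall of -1.79 ± 0.47 (adjusted p = 0.0409), and of -2.20 ± 0.44 without dark replicate 2. AT3G44450 showed the same split, with 2.89 on light replicate 1 against 4.55 to 5.33 on the other light arrays, and 4.71 on dark replicate 2 against 2.48 to 2.74 on the other dark arrays. It fell by 1.51 on the log2 scale (adjusted p = 0.0396), and by 1.86 without dark replicate 2.

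AFR, an F-box protein gene of phytochrome A signalling, was the other symbol-named light signalling gene among the 12 lowest, though it was on none of the lists. It read 5.60 on light replicate 1 and 6.83 to 7.75 on the other light arrays, 6.91 on dark replicate 2 and 4.38 to 4.89 on the other dark arrays. The difference was -1.97 ± 0.45 (adjusted p = 0.0214), and -2.36 ± 0.43 without dark replicate 2. For HYH, AT3G52740, AT3G44450 and AFR, light replicate 1 had the lowest light value. Leaving out light replicate 1 and dark replicate 2 together called 934 probe sets.

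Flavonoid genes had negative differences, and most missed the test. Of the 7 measured members 1 fell and none rose, with a median of -1.60, and without dark replicate 2 it was 2 of 7 and -1.89. The median was -0.86 in time course 1, which holds that array, and -2.68 in time course 2. The shares called lower among all probe sets were 0.818%, and 2.20% without that array. UGT78D2, which attaches glucose to flavonols and anthocyanins, read 8.46, 8.68, 8.56, 9.97 and 9.30 on light replicates 1 to 5. It read 8.47 on dark replicate 2 and 5.80 to 7.55 on the other dark arrays. The difference was -1.99 ± 0.52 (adjusted p = 0.0395), and -2.29 ± 0.53 without dark replicate 2.

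CHIL, a chalcone isomerase-like protein gene, differed by -1.60 ± 0.51 (adjusted p = 0.111) and passed only without dark replicate 2 (-1.89 ± 0.52, adjusted p = 0.0268). DFR, the dihydroflavonol reductase gene, differed by -1.54 ± 0.76. The anthocyanin-modifying enzyme genes UF3GT and AT5MAT differed by -2.14 ± 0.80 and -1.75 ± 0.71. These 3 did not pass in either fit, and neither did UGT78D1, a flavonol rhamnosyltransferase gene (-0.85 ± 0.42). BAN, an anthocyanidin reductase gene of the seed coat, differed by -0.05 ± 0.11.

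Dark values of UF3GT and DFR differed by the day of sampling. UF3GT in the dark read 6.99 and 6.43 on day 4 of time courses 1 and 2, 5.07 on day 5 of time course 2, and 3.95 and 3.55 on day 6, with 7.47 on dark replicate 2. DFR read 8.45 and 7.91 on day 4, 6.48 on day 5 of time course 2, and 6.12 and 5.05 on day 6. In both time courses the day 6 dark value was the lowest. Light values of UF3GT were 7.45 and 8.56 on day 4, 7.64 and 8.10 on day 5, and 6.82 on day 6 of time course 1. The order by day was noticed in the data and was not tested.

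The 12 lowest called genes had log2 differences from -2.72 to -1.44. No gene of the 12 had separate groups with all arrays, and all 12 did without dark replicate 2. Of all 22746 probe sets 229 and 1335 did, and these 12 too were picked for large differences in the same values. The lowest, AT5G42760, read 4.03 on light replicate 1 and 5.93 to 6.93 on the other light arrays. It read 6.41 on dark replicate 2 and 2.55 to 2.97 on the other dark arrays, a fall of -2.72 ± 0.72 (adjusted p = 0.0414), and of -3.34 ± 0.69 without dark replicate 2. AT2G46420 read 6.69 to 7.11 in the light, 6.93 on dark replicate 2 and 5.08 to 5.39 on the others. It fell by -1.47 ± 0.26 (adjusted p = 0.00567), or -1.76 ± 0.23 without dark replicate 2, and was called whichever array was left out.

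The rest of the 12 were AT1G48100 (-2.31), AT1G23205 (-2.17), AT5G62130 (-1.61), AT3G14200 (-1.59) and AT3G57020 (-1.44), as log2 differences. The values without dark replicate 2 were -2.86, -2.67, -1.93, -1.89 and -1.74 in the same order. Over all 24 genes, 20 moved in the same direction in each of the 5 pairs of arrays from one day and time course. That held for 3130 of all 22746 probe sets. The pair of day 5 of time course 1, which holds dark replicate 2, moved least. Its median difference over the 140 higher probe sets was 0.14, against 0.85, 1.16, 1.23 and 1.28 in the other 4 pairs. Over the 186 lower probe sets it was -0.10, against -0.73, -1.15, -1.30 and -1.13. These pairs also share an array batch, so each is a difference within a batch.

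Enzymes of sugar conjugation, cell walls and redox defence gave few calls. Over all probe sets 1.43% were called, and 3.98% without dark replicate 2. At such shares lists of these sizes hold few or no calls. The counts in this and the next paragraphs therefore describe single genes, not the families. Of 47 UDP-glycosyltransferase probe sets 2 fell and none rose, with a median of -0.08, and 3 fell without dark replicate 2. UGT74D1, which attaches glucose to auxin, read 7.37 to 7.81 in the light, 7.42 on dark replicate 2 and 5.78 to 6.35 on the other dark arrays. It fell by -1.21 ± 0.29 (adjusted p = 0.0291), and by -1.43 ± 0.29 without dark replicate 2. All 5 pairs had a negative difference, though dark replicate 2 lay within the light range. The third, called only without dark replicate 2, was UGT71C4 (-0.48 ± 0.14).

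PME61, a pectin methylesterase, was the 1 of 3 pectin enzyme probe sets that fell. It read 3.63 on light replicate 4 and 4.94 to 5.57 on the other light arrays, 5.40 on dark replicate 2 and 3.22 to 3.90 on the others. The difference was -1.06 ± 0.27 (adjusted p = 0.0340), and -1.36 ± 0.23 without dark replicate 2, and its groups overlapped with and without dark replicate 2. TBL37 was the 1 of 22 trichome birefringence-like probe sets called, at -0.79 ± 0.19, and -0.91 ± 0.19 without dark replicate 2. That family acetylates cell wall polysaccharides.

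Of 28 expansin and xyloglucan endotransglucosylase probe sets, whose proteins loosen or rebuild cell walls, none was called, and their median was -0.05. Without dark replicate 2, EXLA3 rose (0.49 ± 0.13) and XTH32 fell (-1.39 ± 0.34). None of 9 cellulose synthase family probe sets was called in the fit of all arrays. Of 15 glycosyl hydrolase family 9 probe sets none was called, and GH9B8 fell without dark replicate 2 (-1.21 ± 0.33). Of 7 tubulins none was called, and TUB5 rose without it (0.55 ± 0.16).

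The glutathione transferase gene GSTU16 was the 1 called of 24 redox enzyme probe sets, at -1.10 ± 0.29, and -1.27 ± 0.30 without dark replicate 2. ALDH11A3, which encodes a non-phosphorylating glyceraldehyde phosphate dehydrogenase, was the 1 called of 8 aldehyde dehydrogenases, at -0.53 ± 0.14 (adjusted p = 0.0490), and -0.62 ± 0.14 without dark replicate 2. The only called gene of 6 WRKY factors was WRKY22, an immune and dark-response regulator, which rose by 0.98 ± 0.25, and by 1.18 ± 0.24 without dark replicate 2. No probe set of 24 cytochrome P450, 42 MADS-box or 20 beta-glucosidase genes was called in the fit of all arrays. With 1.43% of all probe sets called, that is unremarkable for lists of these sizes.

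Photosynthesis genes did not pass the test. The light-harvesting protein genes LHCB4.1 and LHCB4.2 differed by 0.05 ± 0.17 and -0.03 ± 0.23, and RCA by 0.00 ± 0.19. LHCB4.3 differed more, by -0.51, and by -0.63 ± 0.54 in the fit without dark replicate 2 and Col dark replicate 3. Of 7 nuclear photosystem and electron transport genes and 7 genes of chlorophyll and tetrapyrrole synthesis, none was called with or without dark replicate 2, and both medians were 0.08. With 1.43% of all probe sets called, and 3.98% without that array, no call is unremarkable in lists this small. PORB, a protochlorophyllide reductase that needs light, differed by 0.50 ± 0.28.

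The 43 plastid-encoded photosystem and electron transport probe sets had a median of -0.22 and none was called, against 1.43% of all probe sets. Their median was -0.46 in time course 1 and 0.21 in time course 2, so the time courses differed in sign. The 22 mitochondrion-encoded probe sets had a median of -0.17, and -0.23 and -0.01 in the time courses.

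Of the clock genes, 4 had a named probe set, and none was called with all arrays. COR27, a repressor of evening clock genes, read 1.81 to 2.58 in the light. In the dark it read 2.56 and 4.40 on day 4, 2.13 and 4.42 on day 5 and 5.44 in both time courses on day 6. The difference was 1.78 ± 0.54 (adjusted p = 0.0855), and without dark replicate 2, which gave the day 5 value of 2.13, it rose by 2.17 ± 0.53 (adjusted p = 0.0110).

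CCL, known as an unstable transcript under clock control, read 8.75 to 9.59 in the light, 9.13 on dark replicate 2 and 10.5 to 11.2 on the other dark arrays. It differed by 1.25 ± 0.41 (adjusted p = 0.115), and rose by 1.51 ± 0.40 without dark replicate 2 (adjusted p = 0.0212). TIC, a clock regulator, differed by 0.47 ± 0.17 and missed the test in both fits. GI, an evening gene of the clock and flowering, differed by -0.40 ± 0.62, with light values of 6.93 to 7.79 and dark values of 6.53 to 7.57.

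Sugar and starvation genes gave few calls, and over all probe sets 1.43% were called. Of 6 genes known as repressed by sugar or raised in starvation, AT3G15450 rose and the other 5 differed by -0.65 to 0.88, and AT1G18460 fell without dark replicate 2 (-0.76 ± 0.21). Among 17 sugar transporters none was called, and SWEET2, a vacuolar sugar carrier, fell only without dark replicate 2 (-1.50 ± 0.37). Of 10 autophagy genes none was called, with a median of 0.11. The cold-regulated genes COR15A, COR15B and COR47 differed by -0.74 ± 0.84, -0.61 ± 0.66 and -0.03 ± 0.26.

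Other called genes that carry a symbol were named after their values were seen. WSD1, a wax ester synthase gene, read 2.50 to 3.57 in the light and 1.95 to 2.31 in the dark with no overlap, a fall of -0.84 ± 0.14 (adjusted p = 0.00227), and of -0.87 ± 0.14 without dark replicate 2. It was called whichever array was left out. Its values were low, below the array medians of 4.57 to 4.80, on a scale whose lowest value was 1.24. GTR1, a glucosinolate transporter, fell by -1.04 ± 0.25 (adjusted p = 0.0285), and the bHLH factor gene bHLH34 by -0.77 ± 0.21 (adjusted p = 0.0482). They were -1.24 ± 0.24 and -0.95 ± 0.20 without dark replicate 2.

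Hop1, a co-chaperone gene, read 5.65 to 6.40 in the light and 6.55 to 7.19 in the dark, and dark replicate 2 at 6.72 lay among the other dark arrays. It rose by 0.74 ± 0.17 (adjusted p = 0.0236), and by 0.75 ± 0.18 without dark replicate 2. IQD28, a calmodulin-binding protein gene, rose by 0.56 ± 0.13, again with no overlap, and by 0.61 ± 0.14 without dark replicate 2. NAI2, needed for the endoplasmic reticulum bodies that hold defence enzymes, rose by 0.66 ± 0.18 (adjusted p = 0.0482). It was called in 2 of the 11 fits that left out 1 array, and not with the array medians set equal (adjusted p = 0.0798). AR781 rose by 1.00 ± 0.23. For NAI2 and AR781 the rises without dark replicate 2 were 0.72 ± 0.18 and 1.15 ± 0.22.

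The groups did not overlap in 229 of all 22746 probe sets and in 52 of the 326 called, and without dark replicate 2 in 1335 and 293. Each of the 5 pairs moved in the direction of the mean in 84 of the 140 higher and 126 of the 186 lower probe sets, and in 3130 of all 22746. With the day of a time course as a replicate block, 551 were called (239 higher and 312 lower), and 1240 without dark replicate 2. The arrays of time course 1 alone called 1 probe set, AT3G51180 (-0.83, adjusted p = 0.0432), with 855 at an unadjusted p under 0.05. Those 855 are a smaller share than the 0.05 that arises when no probe set differs. The arrays of time course 2 alone called 757.

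The second question was whether this change is particular to the first cycle or to CCA1OX, and neither difference was detected. Late in the day, between 1080 and 1240 min, CCA1OX seedlings again passed from light labelled not growing to dark labelled growing. That comparison called 982 probe sets (4.32%), with 446 higher (1.96%) and 536 lower (2.36%) in the dark. Of the 326 called in the first cycle 260 were also called then, all in the same direction, which is 79.8% of the 326 and 26.5% of the 982. Without dark replicate 2 in the first cycle, 549 were shared, 60.7% of 905 and 55.9% of 982. The cycles share no array, and their log2 differences correlated by 0.82 across all probe sets, which are not independent replicates.

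All 24 of the highest and lowest genes were called in the late cycle as well, and in 21 of them the late difference was larger in size. Against the early values without dark replicate 2 it was larger in 13 of 24. IAA29 differed by 4.13 ± 0.76 late and 3.19 ± 0.73 early, HYH by -3.04 ± 0.57 and -2.09 ± 0.54, and AFR by -2.84 ± 0.47 and -1.97 ± 0.45. The early values without dark replicate 2 were 3.76, -2.68 and -2.36. The early minus late difference passed the limma test in none of the 22746 probe sets (393 at an unadjusted p under 0.05), with or without dark replicate 2. Those 393 are a smaller share than the 0.05 that arises when no probe set differs. For IAA29 it was -0.94 (95% interval -3.06 to 1.19), for HYH 0.95 (-0.64 to 2.53) and for BIM1 -0.04 (-0.51 to 0.42).

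In Col the same step, from light at 120 min to dark at 280 min, called 232 probe sets (1.02%), with 136 higher (0.598%) and 96 lower (0.422%) in the dark. Of the 326 called in CCA1OX 76 were also called in Col, in the same direction, which is 23.3% of the 326 and 32.8% of the 232. Without dark replicate 2 of CCA1OX, 133 were shared, 14.7% of 905 and 57.3% of 232. The 2 lines share no array, and the log2 differences correlated by 0.71 across all probe sets. Of the 24 highest and lowest genes 9 were called in Col.

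These counts include Col dark replicate 3. A fit without it and without dark replicate 2 of CCA1OX, chosen after the data were seen, called 819 probe sets in Col (3.60%), with 373 higher (1.64%) and 446 lower (1.96%), and 1105 in the first cycle of CCA1OX. Of these 511 were shared, all in the same direction, which is 46.2% of the 1105 and 62.4% of the 819, and 23 of the 24 genes were called in Col. The same fit called 1250 in the late cycle (5.50%), with 577 higher (2.54%) and 673 lower (2.96%), of which 731 were shared with the first cycle. The CCA1OX minus Col difference passed the limma test in no probe set, with 700 at an unadjusted p under 0.05 with all arrays and 666 without both. Both counts are a smaller share than the 0.05 that arises when no probe set differs. Without Col dark replicate 3 alone 1 was called, which has no gene name here.

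The intervals leave room for sizeable differences. For IAA29 the difference in change was 0.85 (95% interval -1.23 to 2.93), with 2.34 ± 0.73 in Col. For GH3.3 it was -0.81 (-1.96 to 0.34), with 2.43 ± 0.40 in Col. For HYH it was 0.25 (-1.31 to 1.80), with -2.33 ± 0.54 in Col. Without both arrays these differences were 0.95 ± 0.94, -0.58 ± 0.51 and -0.01 ± 0.63 (SE), and the Col changes were 2.81, 2.59 and -2.67.

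Some genes called in CCA1OX were near 0 in Col, though none passed the adjusted test of the difference. AT5G02580 changed by 0.17 ± 0.34 in Col and 1.85 ± 0.34 in CCA1OX, a difference of 1.67 (0.71 to 2.64). BIM1 changed by 0.13 ± 0.16 in Col (difference 0.71, 0.26 to 1.17), WSD1 by -0.17 ± 0.14 (-0.67, -1.06 to -0.28) and PME61 by 0.04 ± 0.27 (-1.09, -1.86 to -0.33). CCL lay the other way, at 2.68 ± 0.41 in Col, a difference of -1.43 (-2.59 to -0.27). These 5 genes were picked for the size of the difference, and the adjusted p of each was 1. Without both arrays the differences were 1.87 ± 0.42 for AT5G02580, 0.75 ± 0.23 for BIM1, -0.71 ± 0.21 for WSD1, -1.37 ± 0.32 for PME61 and -1.17 ± 0.58 for CCL (SE), and none passed (lowest adjusted p = 0.529, for AT5G02580).

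**Figure D5:**
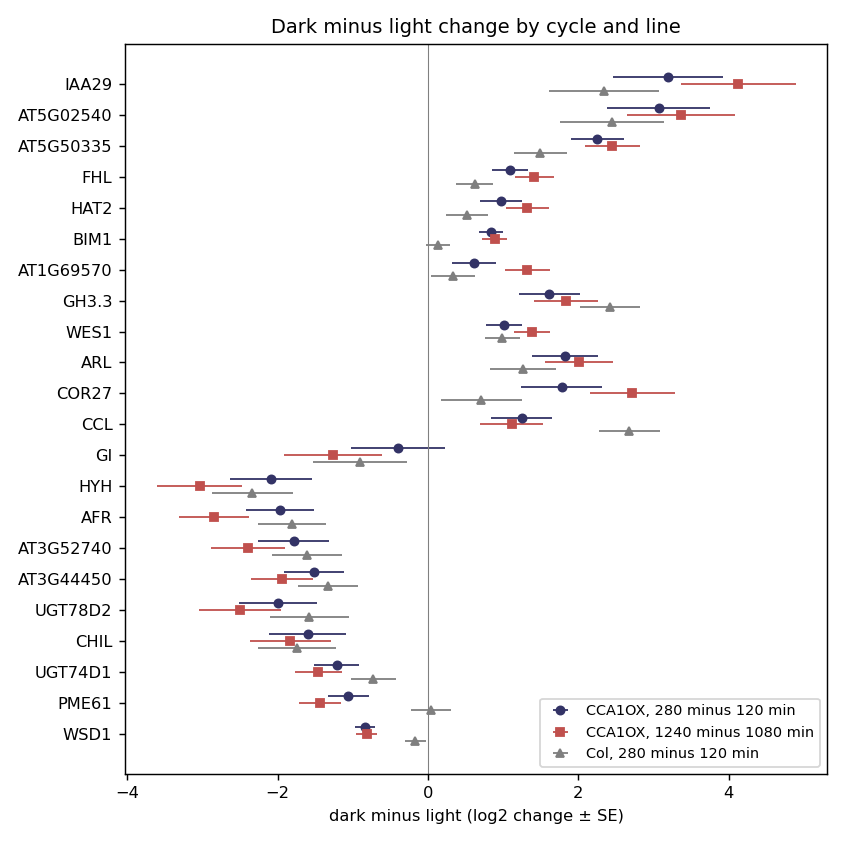
Log2 difference, dark minus light, with its SE (x axis), for 22 genes (y axis) in the first cycle of CCA1OX (circles), the late cycle of CCA1OX (squares) and the first cycle of Col (triangles), all arrays included. IAA29 lies at 3.19, 4.13 and 2.34 and HYH at -2.09, -3.04 and -2.33, while BIM1 lies at 0.85 and 0.89 in CCA1OX and 0.13 in Col.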

How the data were processed

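The deposited table holds log2 expression values for 22810 probe sets on 48 ATH1 arrays, made by RMA in the affy package, per the submitters' processing notes, with versions not given in the sources used here. RMA corrects background, equalises array distributions and summarises probes, so a shift shared by most genes is removed. Values ran from 1.24 to 13.1. After 64 control probe sets were left out, 22746 were tested. A platform annotation table updated through RefSeq gave 13513 probe sets 1 gene, 503 several and 8730 none, and 13436 matched a current locus. The unnamed stayed in all counts. Arrays give no counts, and their number limits the precision.

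Group means were fitted in R 4.3.3 by limma 3.58.1 (9 groups over 48 arrays), with 39 residual degrees of freedom and a median residual SD of 0.244. Contrasts were tested two-sided with limma's moderated statistic, and p was adjusted by Benjamini-Hochberg with a threshold of 0.05. Intervals are 95% and unadjusted. The script was tested on simulated data. Groups come from the labels. The p-values measure the spread between pooled samples of different days and 2 time courses, which may in part be technical.

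Pairing by day and time course, which the labels give, was checked on deviations from group means: the 5 light and dark pairs correlated by 0.298 to 0.566, arrays of another day of the same time course by -0.03 on average and of the other time course by -0.11. The main fit left this pairing out and called 326 probe sets, against 551 with the day of a time course as a replicate block. Array batch was read from the array names in the labels. The 11 arrays fall in 5 batches, of which 1 holds a single dark array.

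Named were the 12 highest and 12 lowest called probe sets with 1 gene, every member of 4 lists (shade and PIF markers, GH3, light signalling, clock) and up to 4 called members of each other list. Members, lists and rules were chosen with earlier results of these data known. Alternatives covered the arrays fitted, blocks, time courses, scaling, dim probe sets, variance prior, array weights, RNA quality and arrays left out. Coordinates are not given, since no genome build is named.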

Additional observations from a re-analysis of the deposited data

Results flagged for a closer look

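In groups of 5 or 6 arrays, a value was singled out where its gap to the nearest other array, divided by the range of the group, passed Dixon's 95% limit (0.71 for 5 arrays and 0.625 for 6). Of 88 groups of values tested, 20 held such an array, and 17 of the 20 were dark replicate 2. The tests share the same arrays and chance alone singles out some.

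Dark replicate 2 was low among the dark arrays for genes that rose. AT5G02580 read 3.79 against 5.55 to 6.43 on the other dark arrays, ARL 4.84 against 6.66 to 7.63, and AT4G34950 3.40 against 6.10 to 7.07. AT4G35720 read 4.86 against 6.67 to 7.46, WES1 7.98 against 8.73 to 9.06, and CCL 9.13 against 10.5 to 11.2.

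It was high for genes that fell. AT5G42760 read 6.41 against 2.55 to 2.97, AT1G23205 7.72 against 4.31 to 5.42, and HYH 5.76 against 1.86 to 2.46. AFR read 6.91 against 4.38 to 4.89, AT3G52740 5.44 against 2.76 to 3.20, and AT5G62130 7.55 against 5.26 to 5.90. AT3G44450 read 4.71 against 2.48 to 2.74, AT2G46420 6.93 against 5.08 to 5.39, PME61 5.40 against 3.22 to 3.90, and UGT74D1 7.42 against 5.78 to 6.35. The darkness score of the array was -0.73 against 0.57 to 1.31.

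Among the light arrays, replicate 1 was low for AT1G23205 (6.09 against 7.48 to 7.99) and high for FHL (3.69 against 2.72 to 2.78). Light replicate 4 was high for ALDH11A3 (10.5 against 10.3 to 10.4).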

How the results depend on the processing

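The count of called probe sets, 326 in the fit of all arrays, ranged from 12 to 905 when single arrays were left out. It was 0 with only the groups compared, 1 with time course 1 only, 757 with time course 2 only, 501 with array batch as a block, 1200 with array weights, 139 with RNA quality as a covariate and 1267 without 3 arrays whose light-regulated genes went against their labels (dark replicate 2, Col dark replicate 3 at 280 min and Col light replicate 3 at 1080 min). The time course as a replicate block gave 419 and the day of a time course as a replicate block gave 551. Alternatives chosen after the data were seen, all without dark replicate 2, gave 1240 with the day block, 0 in time course 1 only (1646 at an unadjusted p under 0.05), 1004 with centred medians, 1144 with only the groups compared, 934 also without light replicate 1 and 1105 also without Col dark replicate 3. Centring, repeated quantile normalization, a filter on dim probe sets and a trended robust prior gave 322 to 368. Of the 43 genes named by the rule, 34 were called (17 in each direction), and the 34 kept their calls and directions under centring, repeated quantile normalization, array weights, the time course block and without dark replicate 2. With RNA quality as a covariate 18 of the 34 kept their call, with time course 2 only 29, with dark replicate 6 left out 4, and with only the groups compared or time course 1 only 0. GH3.17, at -0.08 and not called, changed sign with time course 2 only (0.045) and without dark replicate 4 (0.059; range -0.23 to 0.059 over arrays left out), and GH3.1 with time course 1 only (-0.054). No early minus late difference was called under any alternative. The CCA1OX minus Col difference called 0 probe sets under all alternatives except 2, without the 3 arrays and without Col dark replicate 3, where the same 1 was called, with no gene name here and a log2 difference of 3.46 and 3.48 (range 0 to 1 over arrays left out). The causes were not tested.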
